A study of Homo sapiens with 27 samples.

Results

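The libraries compared here come from HCT116, a colorectal carcinoma cell line, and ask what the hyperactive form of the piggyBac transposase does once that transposase has also been re-engineered. They are the 6 libraries labelled as wild-type transposon with re-engineered piggyBac (WT_rePB, 3 replicates) or with re-engineered hyperactive piggyBac (WT_rehyPB, 3 replicates), chosen by those labels out of 27 libraries in the series. Every library used here carried the wild-type transposon as a self-reporting transposon, an element that transcribes from its own promoter into the flanking genome, and every culture spent 2 weeks in puromycin at 3 µg/ml. The transposases are named delta74PB2CD in WT_rePB and delta74hyPB2CD in WT_rehyPB. Beyond such names the labels give no definition of re-engineered or hyperactive in residues or domains. They also do not say whether replicates were separate transfections, so that p-values measure the spread between these libraries, which may be technical. Where the hyperactive change without re-engineering is set beside it, the libraries are the 3 of wild-type transposon with piggyBac (WT_PB) and the 3 with hyperactive piggyBac (WT_hyPB). WT_hyPB replicates 1 and 2 stood apart from all other pairs, since up to 76.3% of the sites of 1 were also listed in the other.

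PiggyBac is a cut-and-paste DNA transposon first found in insects. Its transposase cuts the element out of DNA and joins it to a TTAA target, and the target is duplicated on either side of the insertion. In mammalian cells insertions are known to be frequent in and near active genes and near chromatin bound by BET proteins. Hyperactive piggyBac is a version of the transposase with substitutions selected for more efficient transposition.

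The file totals, taken here as mapped reads although no label says so, were 11383590, 12051190 and 11636918 in WT_rePB and 8118085, 8698799 and 9364852 in WT_rehyPB, and the groups did not overlap. Depth and group therefore move together in this comparison, and a library measure that moved by more than 1.5 times when depth was matched is given both ways. Matching was done by raising the height minimum in proportion to the file total, or by thinning the peak heights at random to the smallest total. Peak height is the maximum coverage of a peak, and the lists start at a height of 5. With 3 libraries against 3 the two-sided exact permutation test has 20 assignments and cannot go below p = 0.1.

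The base next to the TTAA target stood apart between the transposases in every library. Target sequences were read in RefSeq promoter windows, which run from 250 bases before to 50 bases after a gene's start on GRCh38.p14. Of the sites in these windows, 97.3%, 97.6% and 97.6% lay on TTAA in WT_rePB and 97.7%, 97.0% and 97.9% in WT_rehyPB, so that the target itself was the same. Of all 34961 windows, 46.1% hold a TTAA. The targets below show the bases around it, 20 bases each, 5′ to 3′ on the strand of the gene, with the TTAA in capitals. The first 4 are the tallest in windows of coding genes that were listed in all 3 WT_rehyPB libraries and no WT_rePB library:
GSN: gttgggttTTAAttgtgttg
CACNB4: gtctcattTTAAactgtgca
PCNX4: cgaattcaTTAAtggaaatc
MACROH2A1: cgcagtttTTAAaaaacgtg
The next 4 are the tallest listed in all 3 WT_rePB libraries and no WT_rehyPB library:
TENT2: ggcagcagTTAAgaaactcc
LMNTD1: gaagaagcTTAAggacacta
COPS7A: taaagcatTTAAaaaggcgc
SGMS2: ttttcttcTTAAgaagtcgc
The last 4 are the tallest listed in all 6 libraries:
SF3B1: ttactcacTTAAggacctta
GSTO1: aagatgttTTAAgggctatc
MAPK14: tcgcgcccTTAAggagacag
SLC68A1: gtccgcttTTAAttttggtc

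The target upstream of GSN, the gelsolin gene whose product severs actin filaments, lies 131 bases before the gene's start (chr9:121285966-121285985, plus strand). Its peak heights were 39, 34 and 22 in the WT_rehyPB libraries, and it was absent from all 3 WT_rePB lists. The target of LMNTD1 (chr12:25648553-25648572, minus strand) had heights of 78, 54 and 63 in WT_rePB and was absent from WT_rehyPB. The target upstream of SF3B1, which encodes a splicing factor (chr2:197435249-197435268, minus strand), had heights of 87, 111 and 125 in WT_rePB and 65, 186 and 67 in WT_rehyPB. Since TTAA reads the same on either strand, the base before it was read from both sides. Over the 21 targets listed in WT_rehyPB alone in all 3 replicates, that base was T at 57.1% of the sides. Over the 67 listed in WT_rePB alone it was T at 27.6%, over the 194 listed in all 6 libraries at 45.9%, and over the 21475 listed in none of the 6 at 37.3%. These classes were taken from the lists themselves and are a description.

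Over all targets hit in the windows, T stood directly before the TTAA at 39.7%, 41.9% and 39.6% of the sides in WT_rePB and at 46.5%, 45.4% and 45.3% in WT_rehyPB. Every WT_rehyPB library was above every WT_rePB library, and all TTAA in the windows gave 38.1%. The means were 40.4% ± 1.33 and 45.7% ± 0.66 (SD, n = 3 each), a difference of 5.35 percentage points (p = 0.1 by exact permutation, adjusted p = 0.246 over 32 base and position tests). C was less frequent in the same place, at 28.9% ± 0.85 in WT_rePB and 25.0% ± 0.33 in WT_rehyPB, as did G, at 14.2% ± 0.65 and 10.4% ± 0.40, while A stood at 16.6% ± 0.16 and 18.9% ± 0.49 (SD, n = 3 each). For each of the 4 bases the groups did not overlap, but the 4 shares make up a whole and are not separate results. Groups were also apart for some bases farther from the target. The largest of these differences was 2.18 points, for C 2 bases before it, at 28.8% ± 0.31 and 31.0% ± 0.75 (SD, n = 3 each). The libraries rest on 1468 to 2080 hit targets each. The difference for T was 5.79 points with the scaled height minimum, 5.56 after thinning and 6.40 for heights of 10 or more.

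Counted over targets, WT_rehyPB used a smaller share of those without a neighbouring T. Of the 10955 targets with T on neither side, 7.07%, 6.61% and 6.93% carried a site in WT_rePB and 4.03%, 4.72% and 5.15% in WT_rehyPB. The groups did not overlap, and WT_rehyPB stood at 0.674 times WT_rePB. Of the 11819 targets with T on 1 side, 7.76% ± 0.37 and 6.59% ± 0.68 were hit (SD, n = 3 each), a ratio of 0.849. Of the 4482 targets with T on both sides, 7.92%, 8.66% and 7.68% were hit in WT_rePB and 7.54%, 8.08% and 8.81% in WT_rehyPB, and the groups overlapped (exact permutation p = 0.8). The share hit with T on both sides over the share hit with T on neither is a ratio within a library. It was 1.12, 1.31 and 1.11 in WT_rePB and 1.87, 1.71 and 1.71 in WT_rehyPB, without overlap. Shares of targets hit move with depth, and after thinning the targets with T on neither side were hit at 0.782 times and those with T on both sides at 1.19 times the WT_rePB share, without overlap in either class. With the scaled minimum these figures were 0.810 and 1.25. The difference in the ratio was 0.59, and it was 0.60 after thinning and 0.62 with the scaled minimum. For WT_PB the ratio was 1.21 ± 0.09 and for WT_hyPB 1.66 ± 0.04 (SD, n = 3), and the change of 0.59 with re-engineering was not distinguishable from that of 0.44 without it (exact permutation of the difference, p = 0.175). The tests of base composition and of the ratio were added after the files had been seen.

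**Figure D1:**
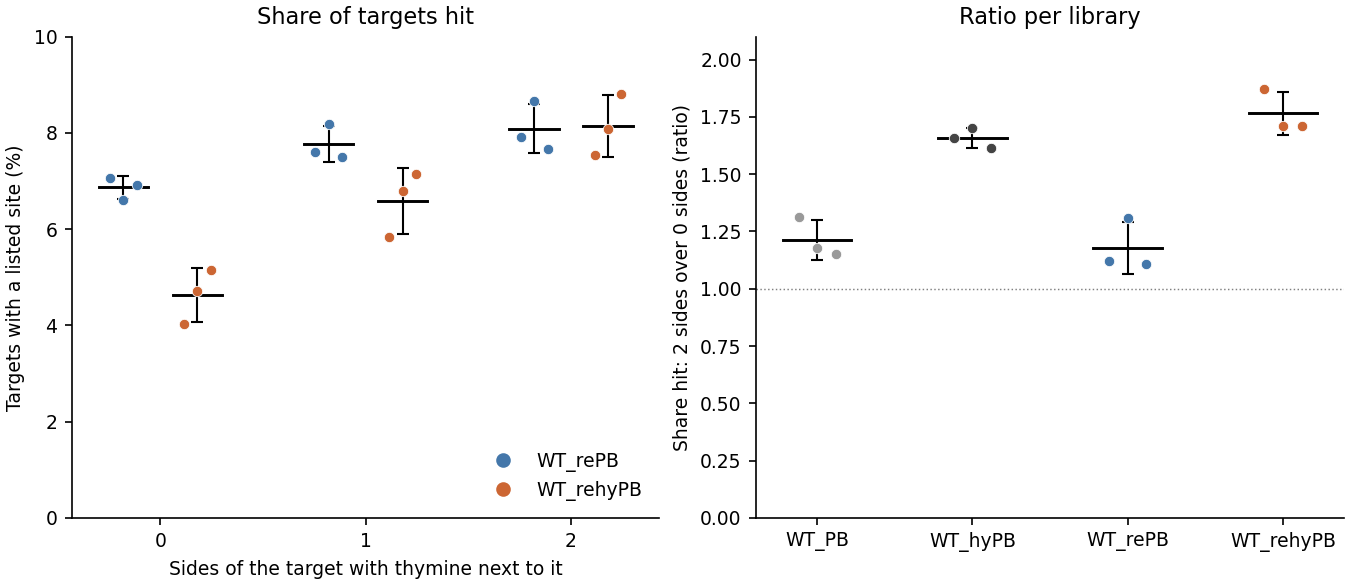
Left, percent of TTAA targets in promoter windows with a listed site, by the number of sides of the target with thymine next to it; right, the share hit with 2 sides over that with 0 sides, per library. Points are libraries, lines are means with SD (n = 3); the WT_rehyPB points lie below WT_rePB at 0 sides, overlap it at 2 sides, and have ratios of 1.71 to 1.87 against 1.11 to 1.31.

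The window of PRKACB, which encodes a catalytic subunit of protein kinase A, held the most distinct sites of the windows shown or named here. It is shown with every TTAA in capitals because all 6 of its targets were used in at least 1 library:
PRKACB: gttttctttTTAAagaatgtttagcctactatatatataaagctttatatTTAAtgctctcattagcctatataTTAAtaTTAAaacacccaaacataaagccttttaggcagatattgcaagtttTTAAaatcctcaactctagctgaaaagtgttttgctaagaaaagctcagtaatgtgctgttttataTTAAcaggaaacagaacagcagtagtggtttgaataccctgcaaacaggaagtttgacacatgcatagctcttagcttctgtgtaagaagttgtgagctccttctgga
The window is chr1:84144021-84144320 on the plus strand. Its first target, 241 bases before the gene's start, had heights of 21, 39 and 53 in WT_rePB and 24, 21 and 35 in WT_rehyPB. Its last, 58 bases before the start, had heights of 12, 7 and 12 in WT_rePB and 10, 13 and 28 in WT_rehyPB. Each of the other 4 targets was listed in 1 or 2 of the 6 libraries, at heights of 5 to 8. The same pair of targets was thus listed with both transposases in every library. The windows of RAD52, a recombination gene, of IGF2BP2, which encodes an RNA-binding protein, and of ZSCAN9, a zinc finger gene, followed with 5 distinct sites each.

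Fewer sites were listed with the hyperactive form. The libraries held 549765, 570354 and 542484 distinct sites in WT_rePB and 336323, 366079 and 427341 in WT_rehyPB, which do not overlap. The means of 554201 ± 14455 and 376581 ± 46409 (SD, n = 3 each) are a ratio of 0.680, or −0.56 on the log2 scale (p = 0.1 by exact permutation and 0.1125 when adjusted over 18 library measures). With the scaled height minimum the difference was −0.17, and after thinning it was −0.28. Per 1000000 of the file total, WT_rePB had 47413 ± 842 sites and WT_rehyPB 43048 ± 2262 (SD, n = 3), a difference of −4365. This difference was −9470 after thinning and −845 for heights of 10 or more. With the scaled minimum it was 6469, but there counts already reduced for depth were divided by the full file totals. That value therefore does not show the direction at matched depth. The scaled counts themselves were 389345 on average in WT_rePB and 346886 in WT_rehyPB. In the lists as deposited, 8.58%, 8.17% and 6.09% of WT_rehyPB sites reached a height of 50, and 4.83%, 5.16% and 5.58% of WT_rePB sites did. That difference of 2.42 points was 4.43 after thinning. With the scaled minimum it was 0.82, and the groups overlapped, at 6.92% to 9.10% and 6.97% to 7.83% (exact permutation p = 0.4). That minimum drops low peaks, mostly from WT_rePB, and leaves heights unscaled. The WT_rePB mean thereby went from 5.19% to 7.38%. In the piggyBac pair without re-engineering the number of sites stood 0.09 higher with the hyperactive form on the log2 scale, and the difference between the pairs, −0.65, gave p = 0.005 by exact permutation over 400 assignments, the smallest they can give (adjusted p = 0.01125). The difference between the pairs was −0.15 with the scaled minimum (exact permutation p = 0.225) and −0.32 after thinning (exact permutation p = 0.005).

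A larger share of WT_rehyPB sites lay near genes. At most 5 kb from a gene end, start or stop, were 31.0%, 30.6% and 30.5% of WT_rePB sites and 32.0%, 32.3% and 32.1% of WT_rehyPB sites, and the groups did not overlap (exact permutation p = 0.1, adjusted p = 0.1125). The difference of 1.46 points was 0.77 with the scaled minimum and 1.02 after thinning. Closer in, 1 kb or less from a coding-gene end, were 4.38% ± 0.03 and 5.17% ± 0.07 (SD, n = 3 each), a difference of 0.78 points. Within 1 kb of a coding gene's start, which the promoter table gives for 15812 of 19974 coding genes, were 2.38% ± 0.02 and 3.04% ± 0.07 (SD, n = 3 each). Sites in promoter windows made up 0.260% and 0.318% of sites on average.

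Inside annotated genes lay 63.5%, 63.5% and 63.6% of WT_rePB sites and 64.7%, 64.5% and 64.1% of WT_rehyPB sites, again without overlap. Inside protein-coding genes the means were 49.9% ± 0.10 and 51.0% ± 0.36 (SD, n = 3 each). Sites from 5 to 50 kb outside the nearest coding gene made up 19.7% ± 0.17 and 19.2% ± 0.17, and those from 50 to 500 kb 19.7% ± 0.07 and 18.9% ± 0.23 (SD, n = 3 each). Gene deserts, defined as positions 500 kb or more from any coding gene, held 3.21% ± 0.10 and 2.89% ± 0.02 (SD, n = 3 each). The desert difference of −0.32 points shrank to −0.0031 with the scaled minimum and to −0.11 after thinning. In both forms of depth matching the groups overlapped.

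Of the sites inside coding genes of known strand, the peak ran in the sense of the gene in 34.3%, 34.8% and 35.2% in WT_rePB and in 38.2%, 35.6% and 36.4% in WT_rehyPB. The lowest WT_rehyPB library stood close to the highest WT_rePB library, without overlap. Peaks on both strands at the same TTAA, which need insertions in both directions, were listed at 4.90% ± 0.11 of WT_rePB sites and 3.79% ± 0.14 of WT_rehyPB sites (SD, n = 3). The difference of −1.11 points was −0.32 with the scaled minimum and −0.48 after thinning.

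**Figure D2:**
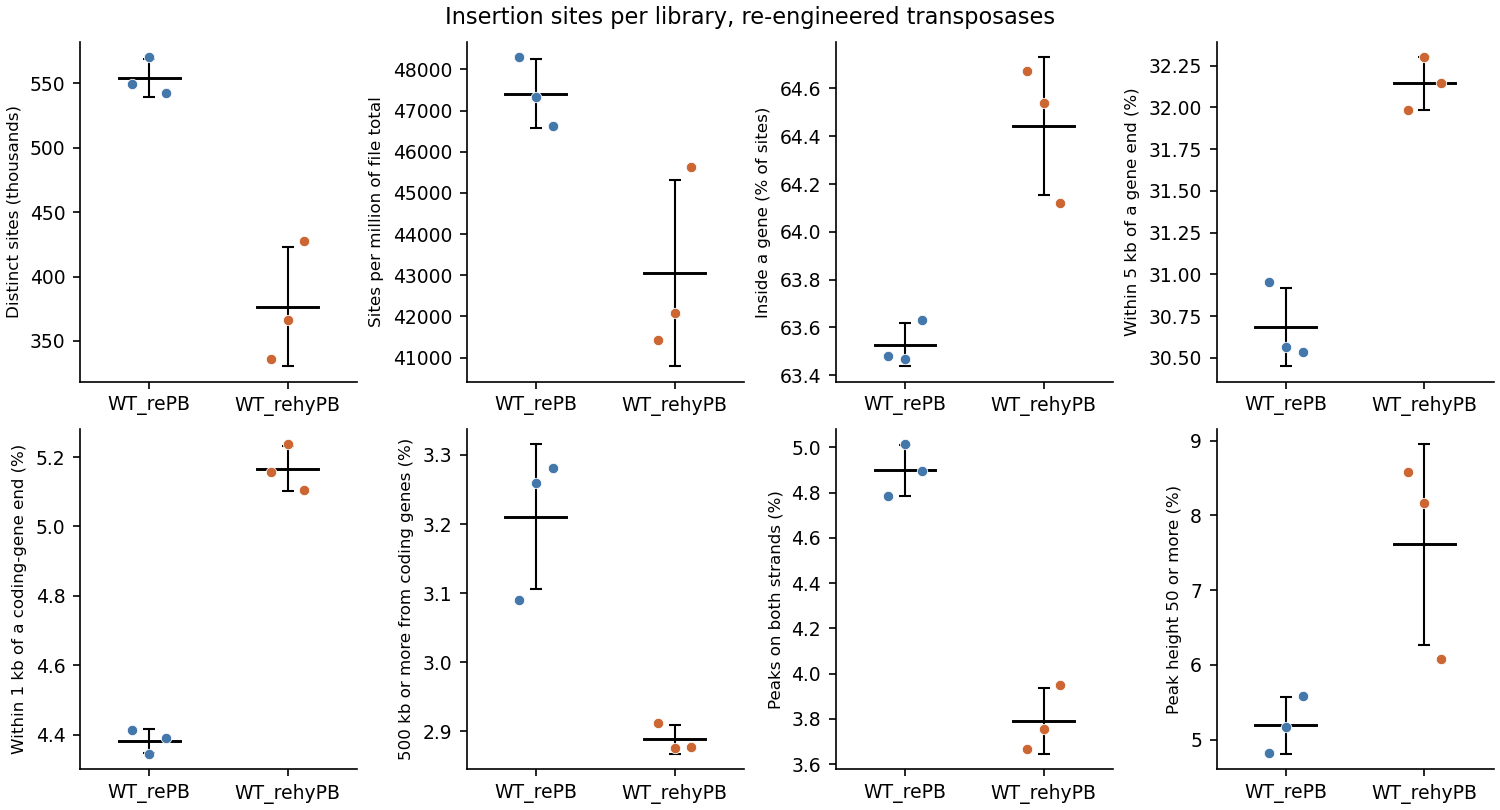
Each panel shows 1 measure in the 3 WT_rePB and 3 WT_rehyPB libraries as points, with the group mean and SD as lines; vertical axes do not start at 0. In all 8 panels the groups do not overlap, with more sites in WT_rePB and larger shares near gene ends and at heights of 50 or more in WT_rehyPB.

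In classes of height not matched for depth, the gene-end difference was seen among low peaks in particular. For heights of 5 to 6, 28.6% ± 0.34 of WT_rePB sites and 30.3% ± 0.30 of WT_rehyPB sites lay near a gene end, for 7 to 9 29.1% ± 0.18 and 30.7% ± 0.08, and for 10 to 19 30.3% ± 0.24 and 31.4% ± 0.26 (SD, n = 3 each). In these 3 classes the groups did not overlap. For heights of 20 to 49 the means were 33.1% ± 0.45 and 33.8% ± 0.61, and for 50 or more 37.6% ± 0.77 and 38.2% ± 1.05 (SD, n = 3 each), and the groups overlapped. Within each group the share was larger among taller peaks. Since the WT_rePB files were deeper, a class of height does not hold like peaks in both groups. Whether the difference itself varied with height, or would by class at matched depth, was not tested.

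**Figure D3:**
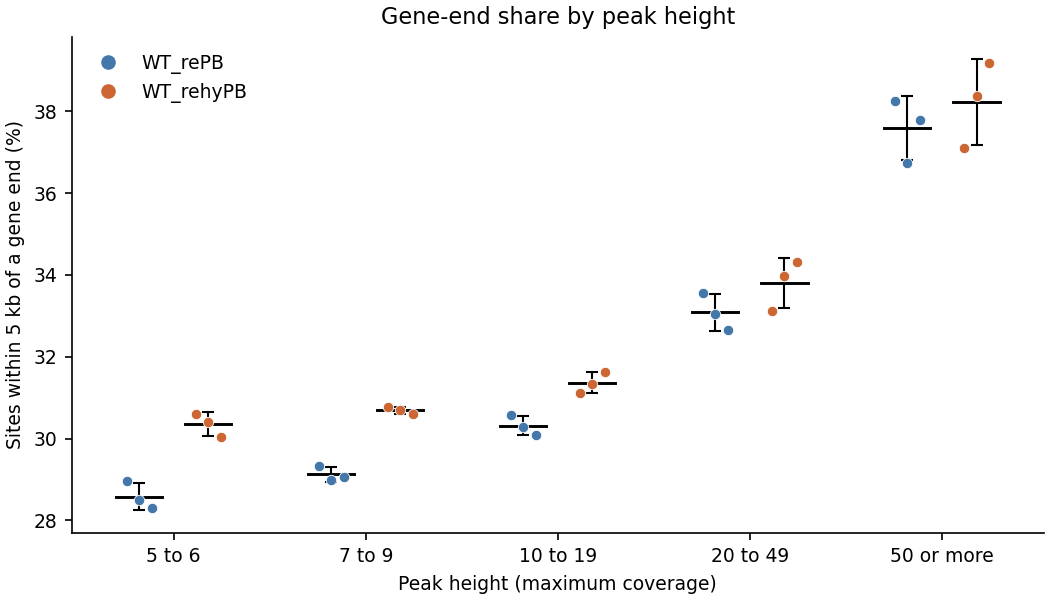
Percent of sites within 5 kb of a gene end, by peak height class, with points for libraries and lines for mean and SD (n = 3); the vertical axis starts above 0. The groups are apart for heights below 20 and overlap above, and both have larger shares at taller peaks. Heights are not matched for depth.

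Most sites were seen once. Of 2055027 distinct sites over the 6 libraries, 9972 were listed in all 6, 10783 in all 3 WT_rePB libraries and no WT_rehyPB library, and 2533 in all 3 WT_rehyPB libraries and no WT_rePB library. With the scaled minimum these counts were 7624, 5576 and 2998. A WT_rePB site was also listed in another WT_rePB library in 18.5% of cases and a WT_rehyPB site in another WT_rehyPB library in 14.9% (medians of 6 ordered pairs). A WT_rehyPB library shared more of its sites with a WT_rePB library, 19.5%, than with another of its own group, and a WT_rePB site was listed in a WT_rehyPB library in 12.8% of cases (medians of 9 pairs). The WT_rePB lists are longer, which raises the chance of a match in them, and with the scaled minimum the medians were 17.1%, 14.4%, 16.2% and 13.7% in the same order.

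The tallest sites common to all 6 libraries, chosen by summed height, had like heights with both transposases. These heights are not scaled to depth, and the WT_rePB files were deeper. At chr10:28095773-28095776, inside MPP7, which encodes a scaffold protein of cell junctions, heights were 257, 319 and 276 in WT_rePB and 287, 314 and 247 in WT_rehyPB. At chr2:62569757-62569760, 63562 bases from TMEM17, they were 316, 357 and 280 against 290, 266 and 313, and at chr16:69409716-69409719, 14903 bases from CYB5B, 200, 264 and 270 against 198, 287 and 263. Sites on one side alone included chr10:112495919-112495922 inside VTI1A, with heights of 128, 255 and 156 in WT_rePB. A site inside CRTAP at chr3:33115513-33115516 had 5, 305 and 236 in WT_rehyPB. The CRTAP site thus reached only the minimum in 1 library. Near-gene position went with recurrence: 27.7% of sites listed in 1 library lay within 5 kb of a gene end, and 42.5% of those listed in all 6. The share inside genes ran the other way, at 64.3% and 57.6%.

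At the scale of whole chromosomes, small shifts were called in both directions. Relative to all sites of the library, chromosomes 12, 15, 16, 17, 19 and 22 had more sites in WT_rehyPB (26.1% of 23) and chromosomes 4, 5, 6 and X fewer (17.4%), 10 of 23 tested or 43.5% (limma, Benjamini-Hochberg adjusted p under 0.05). Of every 10000 sites, chromosome 19 held 138 ± 0.47 in WT_rePB against 152 ± 4.97 for WT_rehyPB (SD, n = 3), a log2 difference of 0.13 ± 0.02 (SE, limma adjusted p = 3.43e-06). Chromosome 22 was at 0.09 ± 0.01 (SE), and the most negative, chromosome 4, at −0.05 ± 0.01 (SE). None of the 23 was called with the scaled minimum or for heights of 10 or more (limma, with 6 and 8 at an unadjusted p under 0.05), and 7 were called after thinning. Without WT_rePB replicate 3 there were 5 calls, and without WT_rePB replicate 2 or WT_rehyPB replicate 2 there were 6.

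In bins of 5 Mb, 134 of 586 were called, 22.9%, with 66 higher (11.3%) and 68 lower (11.6%) in WT_rehyPB (limma adjusted p under 0.05). The bins called higher held a median of 69 protein-coding genes and those called lower 16.5, against 25 over all bins. In the 147 bins with the most coding genes, 48 were higher and 2 lower, and in the 147 with the fewest, 2 were higher and 33 lower. Across the 586 bins, which share their libraries, the log2 difference and the number of coding genes had a Spearman correlation of 0.48 and a Pearson correlation of 0.46. Scaling to the median bin instead of all sites gave 85 higher and 54 lower. With the scaled minimum 29 were called, 12 higher and 17 lower, and after thinning 47. Without WT_rePB replicate 3, 80 were called.

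Among the bins called lower, 175 to 180 Mb of chromosome 4, which holds GPM6A, a neuronal membrane glycoprotein gene, had 914, 970 and 963 sites in WT_rePB and 464, 503 and 574 in WT_rehyPB. Its log2 difference was −0.33 ± 0.04 (SE, limma adjusted p = 2.82e-07), and it was called under all 16 alternatives that were run. The neighbouring bin, 170 to 175 Mb with GALNTL6, was at −0.25 ± 0.05 (SE). The bins of CSMD3 (chromosome 8, 110 to 115 Mb), PCDH9 (chromosome 13, 65 to 70 Mb) and ASTN2 (chromosome 9, 115 to 120 Mb), long genes known for roles in neurons, were at −0.34, −0.28 and −0.24. The CSMD3 bin rested on 55 to 146 sites a library (SE 0.13, limma adjusted p = 0.0492). It was called under 4 of 16 alternatives, the PCDH9 bin under 12 and the ASTN2 bin under 13. Among those higher, 80 to 85 Mb of chromosome 17, with RPTOR, a subunit gene of the mTOR complex, was at 0.27 ± 0.04 (SE, limma adjusted p = 2.92e-05). The end of chromosome 19, 55 to 60 Mb, with ZSCAN5A, was at 0.28 ± 0.07 (SE), and it and the chromosome 17 bin were called under all 16 alternatives run. Bins with BCL7C and SRCAP (chromosome 16, 30 to 35 Mb) and with FARP2 and HDLBP (chromosome 2, 240 to 245 Mb) were both at 0.23. The largest difference, 0.69 ± 0.22 (SE), was at 5 to 10 Mb of chromosome 21 and rested on 27 to 44 sites a library. That stretch has near-identical copies elsewhere, so its sites are uncertain.

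**Figure D4:**
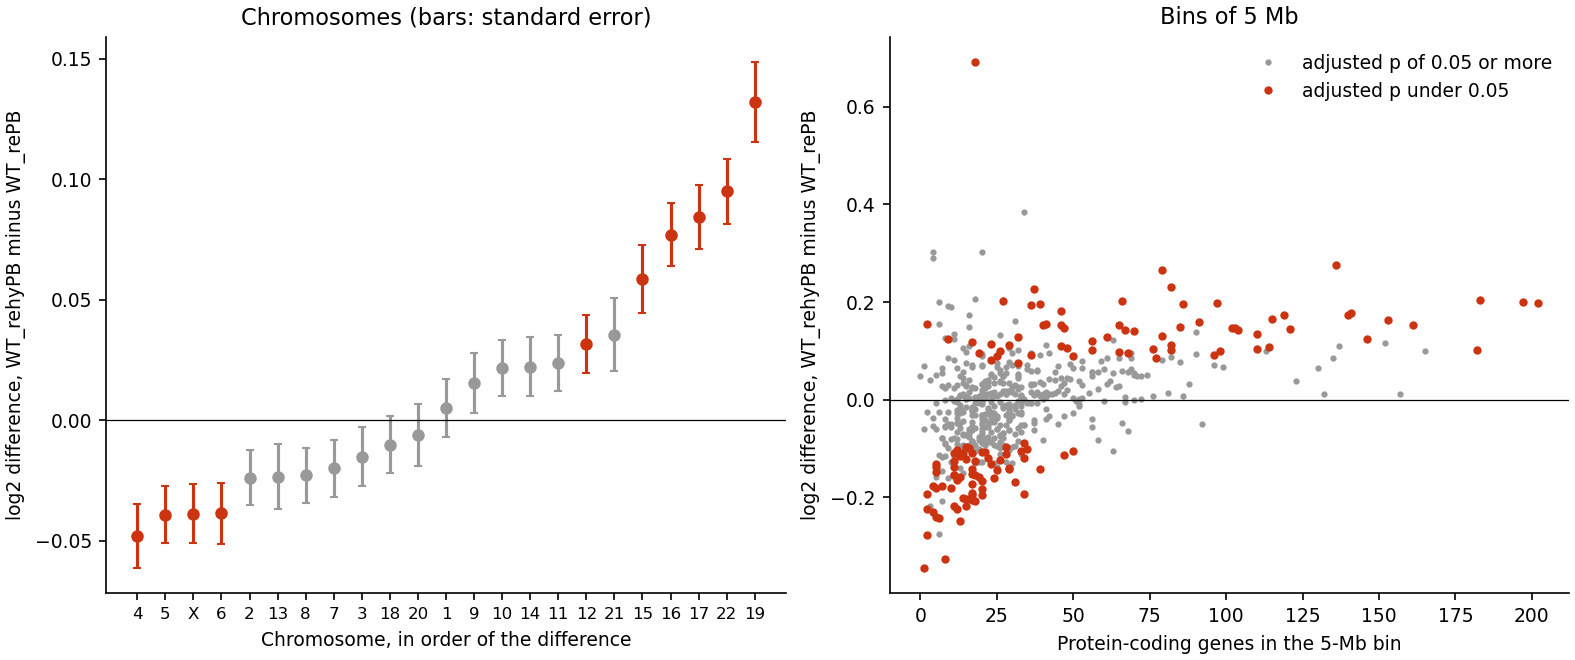
Left, log2 difference in sites per 10000 sites for each chromosome with its standard error, in order of the difference; right, the same difference for 586 bins of 5 Mb against the number of protein-coding genes in the bin. Red marks limma adjusted p under 0.05; chromosome 19 is highest at 0.13, chromosome 4 lowest at −0.05, and bins called lower hold a median of 16.5 coding genes, against 69 for those called higher.

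Among single genes, the test compared sites inside the gene per 10000 sites of the library. Of 5963 protein-coding genes with a mean of 10 or more sites, 16 were called, 0.268% (limma adjusted p under 0.05), 14 higher (0.235%) and 2 lower (0.0335%) in WT_rehyPB, and 642 had an unadjusted p under 0.05. The median log2 difference over the tested genes was 0.03, and scaling to the median gene left 5 calls, all higher. The groups did not overlap for 15.4% of tested genes. Since WT_rehyPB lists fewer sites in all, a gene called higher can hold fewer sites there in number. Exons and introns were not told apart.

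PCDH7, a protocadherin gene for cell adhesion (chromosome 4, 30720369 to 31146800), had the most sites of any coding gene in both groups. It held 1263, 1299 and 1278 sites in WT_rePB and 1071, 1097 and 1212 in WT_rehyPB, which per 10000 sites are 22.8 to 23.6 against 28.4 to 31.8. No WT_rehyPB library overlapped WT_rePB, and the log2 difference was 0.38 ± 0.03 (SE, limma adjusted p = 1.24e-09). In the pair without re-engineering PCDH7 differed by 0.02, and the difference between the pairs was 0.36 ± 0.05 (SE, limma adjusted p = 0.000105). That contrast called 8 of 5615 genes, 0.142%, with 6 higher (0.107%) and 2 lower (0.0356%). PALLD, which encodes the actin-binding protein palladin (chromosome 4, 168497052 to 168928441), held 539, 539 and 519 sites in WT_rePB and 404, 483 and 505 in WT_rehyPB, or 9.45 to 9.80 against 11.8 to 13.2 per 10000, a log2 difference of 0.36 ± 0.05 (SE, limma adjusted p = 2.47e-05). PCDH7 was called under 15 of 16 alternatives, among them both forms of depth matching, at 0.21 and 0.26. PALLD was also called under 15 of 16, but not with the scaled minimum.

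Another 12 genes were called higher. MPP7 (chromosome 10, 28050993 to 28335203) went from 9.02, 8.75 and 9.25 to 12.8, 11.2 and 10.4 per 10000, a log2 difference of 0.34. MYOF, the gene of the membrane repair protein myoferlin, went from 2.50 ± 0.22 to 3.53 ± 0.35 (SD, n = 3 each), a difference of 0.50. FAT1, an atypical cadherin, was at 0.63, ARHGAP29, a GTPase-activating protein, at 0.36, PHLDB2, a cortical anchor for microtubules, at 0.25, and SYTL3, a synaptotagmin-like protein of vesicle traffic, at 0.40. HMGA2, an architectural chromatin protein, was at 0.32, ANKRD11, a chromatin regulator, at 0.57, TASOR, a subunit of the silencing complex HUSH, at 1.37, and GTF2F2, a subunit of the general factor TFIIF, at 0.42. RAD23B, which acts in nucleotide excision repair, was at 0.88, and NSMCE2, the SUMO ligase of the SMC5/6 complex, at 0.29. TASOR rested on 6 to 14 sites a library in WT_rePB and 13 to 22 in WT_rehyPB. With the scaled minimum only PCDH7 was called, and without WT_rePB replicate 2 the calls fell to 2, without replicates 1 and 3 of that group to 7 and 6, and without WT_rehyPB replicate 2 to 10.

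The 2 genes called lower were GRM7 and GALNTL6. GRM7, a glutamate receptor gene of 880 kb (chromosome 3, 6861115 to 7741533), held 207, 211 and 187 sites in WT_rePB and 85, 96 and 132 in WT_rehyPB, or 3.77, 3.70 and 3.45 against 2.53, 2.62 and 3.09 per 10000. Its log2 difference was −0.41 ± 0.09 (SE, limma adjusted p = 0.0265). GALNTL6, of the family that starts O-linked glycosylation (chromosome 4, 171813404 to 173041559), was at −0.37 ± 0.09 (SE, limma adjusted p = 0.0449). Each passed under 5 of 16 alternatives and under neither form of depth matching, where GRM7 was at −0.33 with the scaled minimum and −0.37 after thinning, and GALNTL6 at −0.23 and −0.29. Neither passed without WT_rePB replicate 2 or 3 or without WT_rehyPB replicate 2, and GRM7 did not pass without replicate 1 of either group. In the pair without re-engineering, fitted on other libraries, GRM7 was at −0.37 and GALNTL6 at −0.51, with limma adjusted p of 0.0311 and 0.000352. Of the 16 genes, 3 were called in that pair, where 102 of all 5963 were, or 1.71%.

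**Figure D5:**
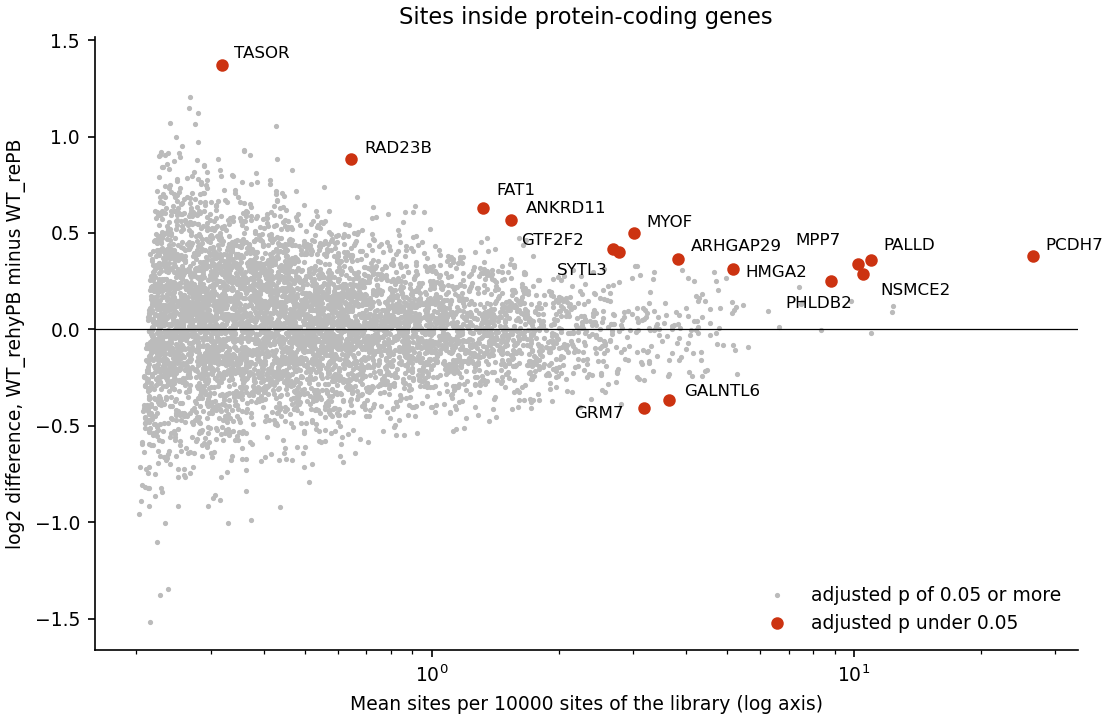
Log2 difference in sites per 10000 sites, WT_rehyPB minus WT_rePB, against the mean level on a log axis, for 5963 protein-coding genes; the 16 genes with limma adjusted p under 0.05 are red and named. PCDH7 has the highest level of all genes, and the called genes with few sites, such as TASOR at 1.37, have the largest differences.

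VTI1A, a gene for a vesicle fusion protein, and ZBTB20, a zinc finger repressor gene, were next to PCDH7 in number of sites in both groups. VTI1A had 11.9 ± 0.20 sites per 10000 in WT_rePB and 12.7 ± 0.36 in WT_rehyPB, and ZBTB20 11.9 ± 0.39 and 12.9 ± 0.77 (SD, n = 3 each). Neither passed the test, with limma adjusted p of 0.454 and 0.311.

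In all, 12 lists with 413 genes were set against the median of 0.03 and the 0.268% called among all tested genes, and the only called members were PCDH7 and GRM7. Of the long neuronal genes, 16 of 34 had enough sites to be tested. They had a median log2 difference of −0.21, with PCDH7 called higher and GRM7 lower. All 34 together made up 48.9 ± 0.53 of every 10000 sites in WT_rePB and 51.8 ± 0.88 for WT_rehyPB (SD, n = 3), a log2 ratio of 0.08 that is opposite in sign to the median. PCDH7 alone made up 23.1 ± 0.41 and 30.1 ± 1.74 of these (SD, n = 3 each). NLGN1, a synaptic adhesion gene, had 179, 192 and 158 sites in WT_rePB and 74, 99 and 102 in WT_rehyPB, or 3.18 ± 0.24 and 2.43 ± 0.25 per 10000 (SD, n = 3 each), a difference of −0.39 that did not pass the test (limma adjusted p = 0.0811). Of the common fragile site genes, long genes that break under replication stress, 27 of 29 were tested, none was called, and the median was −0.09. All their sites together made up 75.3 ± 1.73 of every 10000 WT_rePB sites and 69.7 ± 0.83 of every 10000 WT_rehyPB sites (SD, n = 3). LRP1B, a lipoprotein receptor gene and the one of the list with the most sites, was at 0.01, and NAALADL2 was at −0.23.

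No member of the signalling, tumour suppressor and epithelial lists was called, and their medians ran from 0.02 to 0.14 beside 0.03 over all tested genes. In the Wnt pathway, a pathway often activated in colorectal cancer, 19 of 40 genes were tested, none was called and the median was 0.09. TCF7L2, the pathway's transcription factor, had 2.69, 2.75 and 2.62 sites per 10000 in WT_rePB and 3.33, 3.39 and 3.39 in WT_rehyPB. Those levels did not overlap, and the difference of 0.33 had a limma adjusted p of 0.0884. RNF43 and ZNRF3, ubiquitin ligases that remove Wnt receptors, were at 0.26 and 0.09. Of receptor, RAS and PI3K signalling genes 21 of 39 were tested, with none called and a median of 0.09. MET, the hepatocyte growth factor receptor gene, was at 0.27, RPTOR at 0.26 and EGFR, the epidermal growth factor receptor gene, at −0.03. Of tumour suppressors and cell-cycle brakes 24 of 34 were tested, with none called and a median of 0.12, with SMAD3 and TGFBR2 of the TGF-β pathway at 0.28 and 0.25.

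Of gut epithelial transcription factors 16 of 41 were tested, none was called, and the median was 0.14. Within it ZBTB20 was at 0.12, TEAD1, a partner of YAP, at 0.09 and RUNX1 at 0.15. Of junction and keratin genes 16 of 37 were tested, with none called and a median of 0.02, with the laminin gene LAMA3 at 0.07, the α-catenin gene CTNNA1 at −0.16 and the integrin gene ITGA2 at 0.28. Of BET proteins and coactivators, which belong to the chromatin that piggyBac is known to favour, 23 of 37 were tested, none was called, and the median was 0.03. MED13L, a Mediator subunit gene, was at 0.05, NCOA2 at 0.06 and ARID1B at −0.09.

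Of the genes of casein kinase 2 and the phosphatase PP2A, 8 of 10 were tested and none was called. Their median was 0.27. CSNK2A1, which encodes a catalytic subunit of the kinase, had 29, 30 and 31 sites in WT_rePB and 25, 24 and 39 in WT_rehyPB, a log2 difference of 0.50 with a limma adjusted p of 0.306. The PP2A subunit genes PPP2R5C and PPP2R2A were at 0.01 and 0.28. Of end joining and DNA repair genes 14 of 22 were tested, none was called and the median was 0.08, with XRCC4 at 0.13, PRKDC at −0.04 and RBBP8 at 0.20. Short genes had too few sites for the test. No ribosomal protein gene of 51 reached a mean of 10 sites, and all 51 together held 108 to 156 sites a library. Per 10000 sites these were 2.52 ± 0.11 in WT_rePB and 3.55 ± 0.61 for WT_rehyPB (SD, n = 3), a log2 ratio of 0.49 without overlap between groups. The WT_rehyPB libraries were at 3.21, 4.26 and 3.18. Summed levels did not overlap for any other list either, except the HOX genes. Groups were likewise apart for 15.4% of single genes, 37% of 5-Mb bins and 65.2% of chromosomes. The shares inside all coding genes were also apart, at 49.9% and 51.0%, as were those within 1 kb of a coding gene's start, at 2.38% and 3.04%. Whether the lists differ from other summed sets of genes was not tested. Of 39 HOX genes, 3 were tested and none was called, with HOXA3 at −0.17, HOXB3 at 0.21 and HOXC4 at 0.30.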

How the data were processed

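Insertions were mapped from RNA of self-reporting transposons. Per the labels' protocols, RNA was reverse transcribed with an oligo-dT primer, amplified from the transposon, tagmented and sequenced. The authors deposited 1 list of peaks per library, without header. The submitters' processing notes name cutadapt 3.4, HISAT2 2.2.1.0 and the build hg38 (GRCh38.p5); the peak caller and the handling of duplicate reads are not given in the sources used here. The deposited peak height is a signal, the maximum coverage, and was not scaled to depth as far as the values show. The protocols describe no molecular identifiers, and whether heights include PCR duplicates is not known. A constant column was taken as the file total.

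A site was the peak's first base in its sense, taken as the end minus 3 for minus-strand peaks, which gives opposite peaks of 1 target the same position, and counted once per library on chromosomes 1 to 22 and X. Genes came from the RefSeq table of GRCh38.p14, and sequences and strands from its promoter table. That 97.5% of window sites fell on TTAA was the check of build and coordinates. Library measures were compared by two-sided exact permutation tests, with Benjamini-Hochberg adjustment over 18 measures. Chromosomes, bins and genes were tested with limma 3.58.1 in R 4.3.3 on log2 of sites plus 0.5 per 10000 sites of the library, with features of a mean under 10 sites left out, and the script was tested on simulated data. Other steps used Python 3.11.15. The difference between hyperactive changes was a contrast over 12 libraries.

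Groups came from the sample titles. The genes named are all those past adjusted p of 0.05 without overlap between groups, the 3 with the most sites in each group, and the 3 of each list with the most sites, of which some are not reported here; of bins, the 5 largest called in each direction; of sites, the 3 tallest of each class, of which some are given; of promoter windows, the 4 with the most sites outside chromosome 8. The members and lists were chosen with earlier results of these data known. Same-numbered replicates did not deviate together (correlations of −0.01, 0.02 and −0.01 over genes), so numbers were not taken as pairs. Alternatives covered height minimum, depth matching, filter, prior count, scaling, bin size, shared spread and each library left out. The other 15 libraries of the series were not used.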

Additional observations from a re-analysis of the deposited data

Results flagged for a closer look

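The difference between the hyperactive change with re-engineering and that without it was tested over 18 library measures by permutation within pairs. All 400 assignments were counted after the mean of the 2 changes had been subtracted, so the p-values are approximate. Measures with an adjusted p under 0.05 follow, each as the change in WT_rehyPB minus WT_rePB less the change in WT_hyPB minus WT_PB. The log2 number of sites gave −0.65 and sites per 1000000 of the file total −5531. The gene share gave 1.63 points, since it stood 0.92 higher with re-engineering and 0.72 lower (−0.72) without. The share within 1 kb of a coding-gene end gave 0.53 points, that within 1 kb of a coding gene's start 0.56, and that in promoter windows 0.077. The share of sites with peaks on both strands gave −2.09, and the share of peaks in the sense of the gene 3.98. The share of sites with a height of 50 or more gave 3.38 points and the mean height 3.93. The percent of TTAA hit in promoter windows gave −1.74, and the A and T content around hit targets −0.57 points. Replicate sharing gave −25.7 points, a value that includes the linked WT_hyPB replicates 1 and 2. It was −9.46 points without WT_hyPB replicate 2, where a single WT_hyPB pair is left. The sharing values of a group come from the same pairs and are not independent, so the p-values of this measure are not reliable. Without WT_hyPB replicate 2 every one of these stayed under an adjusted p of 0.05 except the A and T content (adjusted p = 0.0771). File totals fell from WT_rePB to WT_rehyPB and overlapped between WT_PB and WT_hyPB. At matched depth 11 of these measures were computed again, a step added after seeing the data, with adjustment over 13 measures. After thinning all 11 had an adjusted p under 0.05 in the same direction, with −0.32 for sites and −10581 per 1000000. Sites per 1000000 turned to 8221 with the scaled minimum, where counts already reduced for depth were divided by the full file totals. With that minimum 5 measures had an adjusted p above 0.05. These were the number of sites at −0.15, the coding-end share at 0.20, the promoter-window share at 0.043, the share of tall peaks at 1.46 and the mean height, which turned to −0.50. The scaled minimum drops low peaks, more of them from the deeper files, and leaves heights unscaled. By construction it thus raises the share of tall peaks and the mean height in those files. After thinning, which lowers the heights, these 2 measures gave 5.41 and 6.26.

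The same contrast over 5615 genes called 8 by limma (0.142%). PCDH7 gave 0.36 on the log2 scale. A further 5 genes were higher, AFG2A at 0.88, ATRNL1 at 0.97, AHI1 at 1.02, SOX6 at 1.11 and EBF1 at 1.75. EBF1, a transcription factor gene of B cells, had 26, 20 and 35 sites in WT_PB, 7, 7 and 16 in WT_hyPB, 14, 25 and 25 in WT_rePB and 18, 14 and 16 in WT_rehyPB. CAPN8 was lower at −2.33 and PHTF1 at −1.80. CAPN8, a calpain gene of the gut, had 21, 14 and 18 sites in WT_rePB and 5, 5 and 2 in WT_rehyPB, and 8, 11 and 4 in WT_PB and 13, 15 and 13 in WT_hyPB. The count depended on single libraries and on depth. It was 3 without WT_hyPB replicate 2, 1 without WT_rePB replicate 1 or 2 or WT_rehyPB replicate 1, 5 without WT_rePB replicate 3, 4 without WT_rehyPB replicate 2 and 22 without WT_rehyPB replicate 3. It was 36 with the scaled minimum and 19 after thinning.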

How the results depend on the processing

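Of 255 repeats over the 16 called genes, none changed direction, 124 stayed past adjusted p of 0.05 and 131 did not. For the 10 named bins the counts were 120 and 40 of 160, and for the 10 called chromosomes 60 and 40 of 100, with no change of direction. Settings were planned, save for those on T beside the target and on the difference of effects in the number of sites, which were added after seeing the data.

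With the height minimum scaled to the file total, the log2 number of sites was −0.17, gene-end share 0.77, coding-end share 0.59, desert share −0.0031, both-orientation share −0.32, tall share 0.82, replicate sharing −2.18 and promoter-window share 0.040. Sites per 1000000 reversed to 6469. This setting by construction removes more sites from the deeper files, and the counts left were divided by the full file totals. It leaves heights unscaled, which raises the tall share in those files. After thinning, the values were −0.28 for sites, −9470 per 1000000, 1.02 for gene ends, 0.66 for coding ends, −0.11 for deserts, −0.48 for both orientations, 4.43 for tall peaks and −2.29 for replicate sharing. For heights of 10 or more, sites per 1000000 was −845, gene-end share 1.13, desert share −0.14 and both-orientation share −0.66. With all genes, coding-end share was 0.92 and desert share −0.0025. The difference of hyperactive effects in gene-end share, 0.32 in the main setting, reversed to −0.38 for heights of 10 or more, −0.62 with the scaled minimum and −0.23 after thinning, and none of the 4 passed (exact permutation p of 0.08 or more). That in the number of sites, −0.65, was −0.15 with the scaled minimum (exact permutation p = 0.225). T before the target was 3.27 points for heights of 5 to 9 and 6.63 for 10 to 19.

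Called chromosomes numbered 0 for heights of 10 or more and 0 with the scaled minimum, with 8 and 6 at an unadjusted limma p under 0.05. Called bins numbered 22 for heights of 10 or more, 29 scaled, 47 thinned and 51 by summed height. Called genes numbered 5, 1, 4 and 3 in the same order, 4 with no filter, 5 scaled to the median gene and 25 with a spread shared over 4 groups. Genes with a difference of effects numbered 2, 36, 19 and 2 in that order, 2 with a filter of 5 sites, 0 with no filter (limma, 1731 with an unadjusted p under 0.05), 5 with the replicate block and 3 without WT_hyPB replicate 2. The cause was not tested.

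Leaving out each library gave −0.66 to −0.49 for sites, −5657 to −3555 per 1000000, 0.80 to 1.08 for gene share, 1.38 to 1.59 for gene ends, 0.75 to 0.81 for coding ends, −0.38 to −0.29 for deserts, −1.19 to −1.05 for both orientations, 1.94 to 3.18 for tall peaks, −4.06 to −2.65 for replicate sharing, 0.046 to 0.066 for promoter windows, 0.25 to 0.46 for the difference of effects in gene ends, −0.75 to −0.57 for that in the number of sites, 4.94 to 6.12 for T before the target and 0.53 to 0.65 for the ratio of shares hit. Called chromosomes ran from 5 to 10, bins from 80 to 112, genes from 2 to 21 and genes with a difference of effects from 1 to 22.

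Same-numbered replicates share only a number; with a replicate block 13 genes, 141 bins and 10 chromosomes were called, and the difference of effects in the number of sites stayed −0.65 with an exact sign-change p of 0.25, the smallest that 3 pairs allow. Precision is limited by 3 libraries a group and by sites near the height minimum.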

Other observations

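The few sites in promoter windows that were not on TTAA fell mostly on sequences 1 base away from it. Each sequence was counted together with its reverse complement. CTAA came first, with 25, 33 and 30 sites in the WT_rePB libraries and 16, 21 and 15 in WT_rehyPB. ATAA was next, with 14, 9 and 11 against 6, 11 and 4. CTAG followed with 5, 7 and 3 against 3, 9 and 8. The share of sites on TTAA did not differ detectably (97.5% on average in each group, exact permutation p = 0.9). These are positions of the reference sequence, and variants of the cell line at them were not looked at.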
